A study of Mus musculus with 7 samples.

Results

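The ADAM, ADAMTS and ADAMTSL genes encode metalloproteinases of the cell surface and the extracellular matrix together with their relatives that carry no protease domain. The members were the rows of the count table whose gene symbol was Adam, Adamts or Adamtsl followed by a number. This gave 57 of the 24421 rows, 33 of them ADAM, 19 ADAMTS and 5 ADAMTSL genes. Enough counts to test were held by 28 rows, namely 10 ADAM, 14 ADAMTS and 4 ADAMTSL genes. Of the 29 rows that were not tested, 19 were at 0 in every library and 10 held 6 to 50 counts over all libraries.

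Messenger RNA had been read at the 3' ends of polyadenylated transcripts in sorted stromal cells of BALB/c mice, a laboratory strain. The pCAF group (cancer-associated fibroblasts of the primary tumor) held 3 libraries from 1 cm tumors, raised by injecting a mammary fat pad with 100000 cells of the mouse breast carcinoma line 4T1-luc. These cells were Ter119-, CD45-, EpCAM- and PDPN+ in the labels, where PDPN is podoplanin, a membrane glycoprotein found on many fibroblasts and on lymphatic vessels. The selection field of pCAF replicate 3 read PDPN-, against its source name. The NMF group held 4 libraries of Ter119-, CD45- and EpCAM- cells from the normal mammary fat pad of untreated mice, with no selection on PDPN. The labels gave the mice's age as 8 weeks in pCAF and 12 weeks in NMF, whereas the design text called them age matched. The treatment protocol gives 8 weeks as the age at injection, and the age of the pCAF mice when the tumors were collected is not stated in the sources used here. Tumors and fat pads were digested with different collagenases. The replicates are labelled biological but no animal is named, and p-values here speak of the spread between libraries, which may be technical.

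ADAM proteins are anchored in the cell membrane. Those with an intact zinc-binding site cut the outer part from other membrane proteins, a step called ectodomain shedding that frees growth factors, cytokines and adhesion molecules. ADAMTS proteins are secreted, carry thrombospondin type 1 repeats and cut matrix proteins such as the proteoglycans aggrecan and versican, the propeptides of procollagens and von Willebrand factor. ADAMTSL proteins share the repeats but have no protease domain, and several bind fibrillin microfibrils. In fibroblasts these families are known for matrix turnover and for the release of growth factors.

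Total counts were 1885039 to 2184389 in pCAF and 2223198 to 4990070 in NMF. pCAF replicate 1, with 11090 genes detected against 13222 to 14353 in the other libraries, and NMF replicate 4 were each unlike the rest of their group. Their chi-square statistics per degree of freedom against libraries of their own group were 39.98 to 42.2 and 35.6 to 39.8, where the other pairs within a group gave 3.22 to 10.1. CPM are counts scaled to TMM-adjusted library totals. Summed CPM of 7 fibroblast markers was 69001 to 80265 in pCAF and 22031 to 41131 in NMF. Of these, Col1a1, Col1a2, Col3a1, Lum and Pdpn were higher in pCAF, and Pdgfra and Dcn did not pass. Pdpn encodes the sort marker of pCAF, on which NMF cells were not selected, so its rise is not independent of the sort. Dcn was at 4653 ± 1219 CPM in pCAF and 8364 ± 2544 CPM in NMF. All 7 blood endothelial markers were lower in pCAF, at a sum of 35.5 to 42.7 CPM against 1036 to 1553 CPM in NMF. Adipocyte markers summed to 0 to 0.554 CPM in pCAF, where Plin1, Cidec and Lep had no count, and 42.2 to 88.1 CPM in NMF. Lymphatic endothelial markers summed to 16.1 to 31.5 CPM in pCAF and 30.6 to 60.3 CPM in NMF, with Flt4 lower and Lyve1 not passing. Epithelial markers summed to 72.6 to 229 CPM in pCAF and 57.1 to 308 CPM in NMF. Of these, Epcam was lower, and Krt8, Krt18 and Krt14 did not pass. The part of these other cells in the differences below was not tested. In sorted bulk cells, fewer cells of a type and less RNA per cell cannot be told apart.

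The families moved in both directions between tumor and fat pad stroma. In pCAF, 6 tested members were higher than in NMF, and these were Adamts4, Adamts6, Adam12, Adam9, Adam19 and Adamts8. In pCAF, 7 were lower, and these were Adamtsl4, Adamts19, Adam22, Adamts10, Adamtsl5, Adam23 and Adamtsl3. Calls were made at an adjusted p under 0.05 in edgeR's quasi-likelihood test, with pCAF over NMF as the fold change. Thus 46.4% of the 28 tested members passed, against 28.4% of all 10535 genes tested. Among all genes 14.3% were higher and 14.2% lower, so that 50.2% of the calls were rises, or 37.1% with library totals as the only scaling. The median log2 fold change over all genes was -0.02, and -0.26 with that scaling. The groups did not overlap in 16 members, a state found in 40.4% of all tested genes. The median log2 fold change of the tested members was 0.38. Without pCAF replicate 1 the number of lower members was 8, and without any other single library it was 1 to 3, while 5 to 7 members were higher in these fits. The filter on low counts can favour genes high in 1 group, as it was passed through pCAF libraries alone by Adamts6 and through NMF libraries alone by Adam23 and Adamts19. Both directions are seen in the plot of CPM by library and in the plot of fold changes by role.

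**Figure D1:**
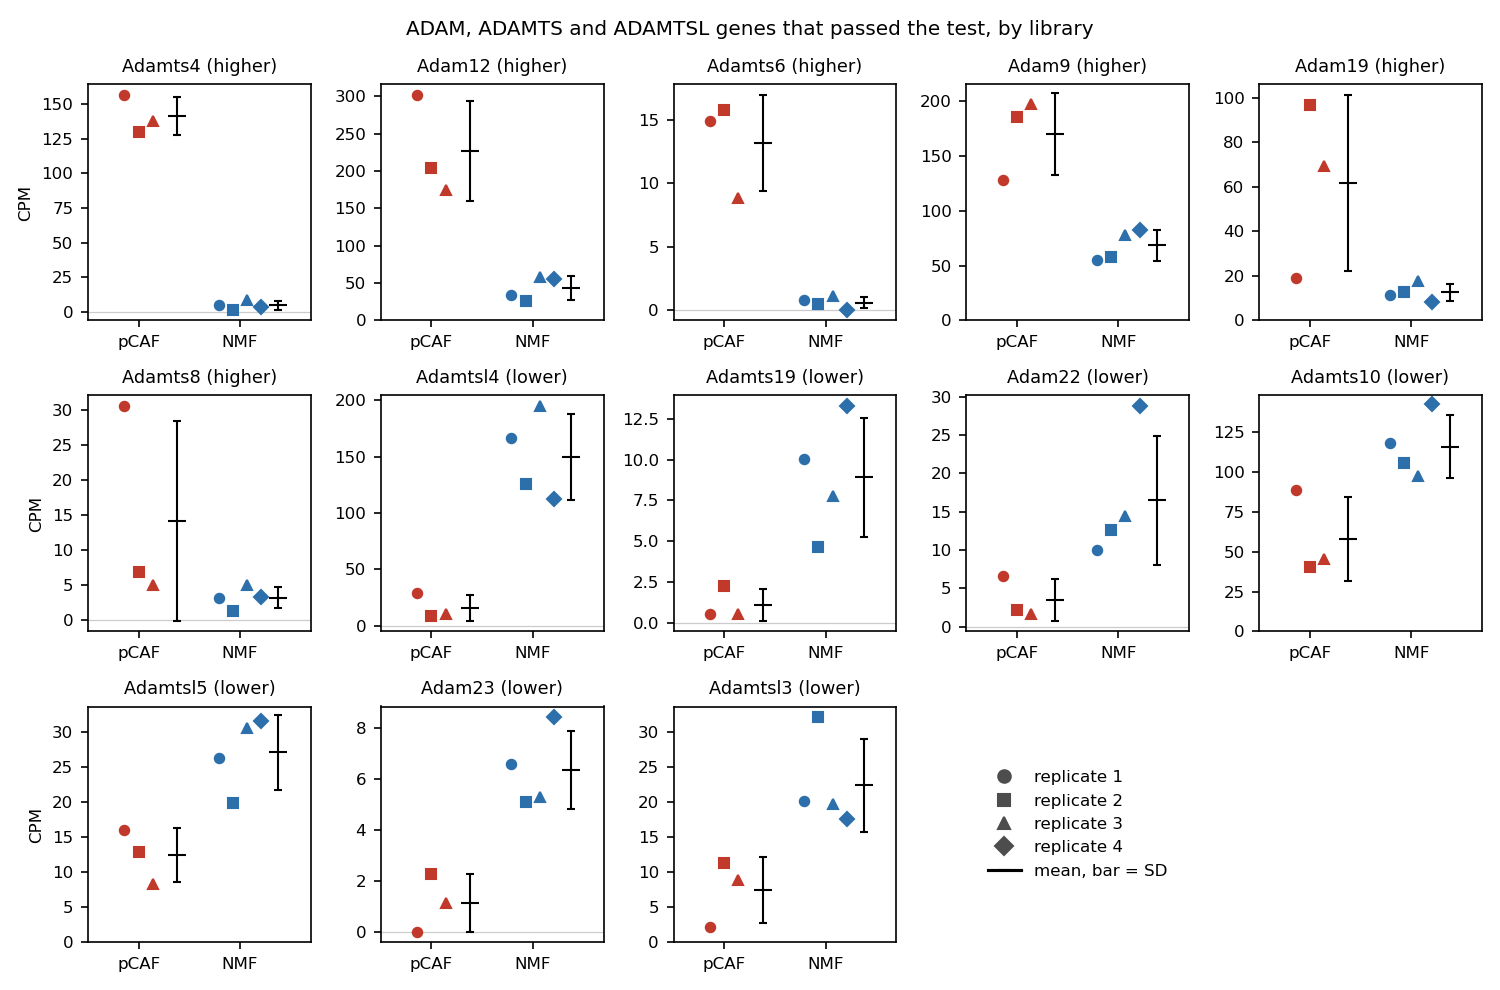
CPM (linear axis with 0 shown) of the 13 members that passed the test, by library, with pCAF (red) left of NMF (blue); marker shapes are replicate numbers and black bars are mean and SD (n = 3 pCAF, n = 4 NMF). No panel has overlapping groups; for Adamts8 the lowest pCAF value, 4.99 CPM, lies just above the highest NMF value, 4.93 CPM.

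**Figure D2:**
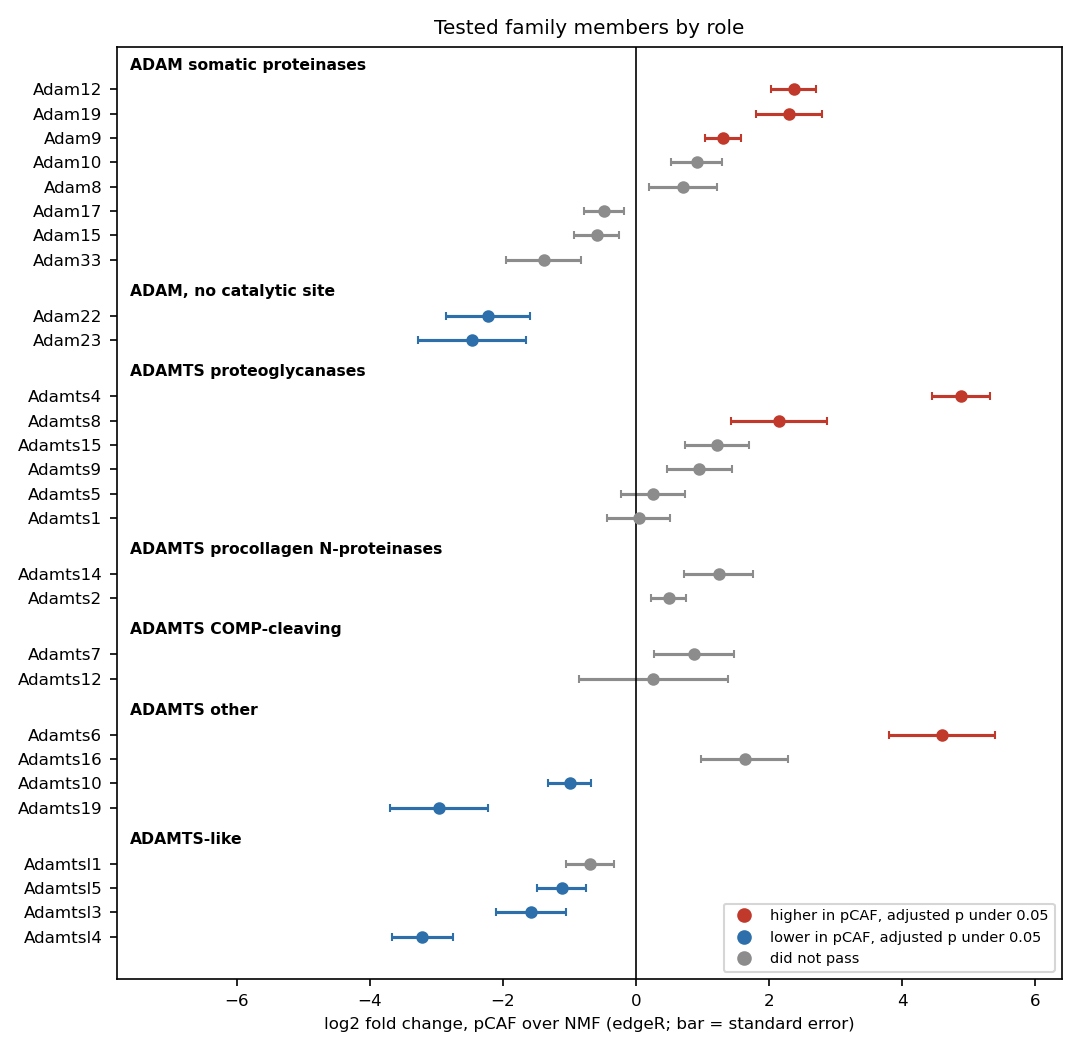
Log2 fold change of the 28 tested members, pCAF over NMF, with the standard error from edgeR, grouped by role; red passed as higher, blue passed as lower and grey did not pass. The point estimates run from -3.21 for Adamtsl4 to 4.88 for Adamts4, and those of the 4 ADAMTSL genes all lie below 0.

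Among the membrane-anchored ADAM proteinases of somatic tissues, 3 of 8 tested members rose and none fell. That is 37.5% of these 8, where 28.4% of all tested genes passed in either direction. Adam12 (mm10 chromosome 7, 133883199 to 134232146, minus strand) encodes a sheddase and binding partner of integrins and syndecans that is known as a gene of activated mesenchyme. It was at 302, 204 and 174 CPM in pCAF replicates 1 to 3, against 33.99, 26.2, 58.8 and 55.5 CPM in NMF replicates 1 to 4. Each pCAF library thus lay well above each NMF library. Adam12 was 5.17-fold higher (log2 fold change 2.37, SE 0.34, adjusted p = 8.09e-04). Adam9 (chromosome 8, 24949611 to 25016927, minus strand), a widely expressed sheddase, was at 128, 185 and 197 CPM in pCAF, against 54.8, 57.8, 78.1 and 82.4 CPM in NMF. The groups were narrow and apart, and the rise was 2.48-fold (log2 fold change 1.31, SE 0.27, adjusted p = 0.00509). Adam19 (chromosome 11, 46055992 to 46147343, plus strand), which can release neuregulin from its membrane precursor, was at 18.9, 96.9 and 69.3 CPM in pCAF, against 11.6, 12.7, 17.6 and 8.40 CPM in NMF. pCAF replicate 1 was only just above the highest NMF library, while the other pCAF libraries were far above it. Adam19 was 4.93-fold higher (log2 fold change 2.30, SE 0.50, adjusted p = 0.00710) and 6.66-fold higher without pCAF replicate 1. The 3' end of Adam19 overlaps Gm16033 on the other strand, and since the sources used here do not say whether counting used strand, its counts are uncertain.

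The other 5 did not pass, among them both principal sheddases. Adam17, which releases tumor necrosis factor and several ligands of the EGF receptor, was at 56.5 ± 12.8 CPM in pCAF and 78.4 ± 21.8 CPM in NMF (SD, n = 3 and n = 4, adjusted p = 0.274). Its 3' end overlaps that of Iah1 on the other strand, so its counts are uncertain. Adam10, the main protease that cuts Notch receptors after ligand binding, was at 36.6, 45.1 and 55.4 CPM in pCAF, against 11.97, 29.98, 19.4 and 35.1 CPM in NMF. These groups did not overlap, though the nearest libraries lay close together, and the log2 fold change of 0.91 (SE 0.38) did not pass (adjusted p = 0.102). Adam15, which is known from endothelium and other cells, was at 248, 119 and 94.8 CPM in pCAF, against 242, 224, 208 and 255 CPM in NMF. Only pCAF replicate 1 reached the NMF range. The adjusted p of Adam15 was 0.218 with all libraries and 0.00320 without pCAF replicate 1, where it was 2.18-fold lower. Adam8, a protease best known from leukocytes, was at 12.2 ± 7.46 CPM in pCAF and 7.46 ± 1.26 CPM in NMF (adjusted p = 0.335), and its 3' end overlaps Gm16201 on the other strand. Leukocyte markers summed to 24.9 to 52.4 CPM in pCAF and 18.3 to 151 CPM in NMF. Of these, Ptprc (at 0 in pCAF) and Cd68 were lower, and Csf1r and Lyz2 did not pass. Csf1r held 49, 19 and 21 counts in pCAF, against 18, 10, 40 and 18 counts in NMF. Adam33, a gene of mesenchymal cells linked to airway disease, was at 16.6, 21.4 and 10.5 CPM in pCAF, against 21.2, 26.2, 28.5 and 92.8 CPM in NMF. NMF replicate 4 was far above each other NMF library, and the adjusted p was 0.0891 with all libraries and 0.241 without that one. Adam33 passed in the DESeq2 test with all libraries (adjusted p = 0.0489).

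Both tested ADAM genes whose proteins lack a working catalytic site were lower in pCAF, where 14.2% of all tested genes were lower. Adam22 (chromosome 5, 8072352 to 8368160, minus strand), a receptor of the secreted neuronal protein LGI1, was at 6.65, 2.25 and 1.66 CPM in pCAF, against 10.04, 12.7, 14.4 and 28.8 CPM in NMF. It was 4.67-fold lower (log2 fold change -2.22, SE 0.63, adjusted p = 0.0238) and 8.43-fold lower without pCAF replicate 1. Adam23 (chromosome 1, 63445891 to 63596276, plus strand), a related adhesion protein of neurons, held 0, 4 and 2 counts in pCAF, against 17, 12, 15 and 45 counts in NMF. It was 5.52-fold lower (log2 fold change -2.46, SE 0.81, adjusted p = 0.0447). Leaving out pCAF replicate 2 left 2 pCAF counts of Adam23 and a ratio of NMF to pCAF of 12.2 (95% counting interval 3.28 to 102). No library of pCAF reached any library of NMF for either gene. Either call was lost without some single libraries: Adam22 without pCAF replicate 2 or 3 (adjusted p = 0.0815 in both) or without NMF replicate 3 or 4 (0.0513 and 0.0596), and Adam23 without any library except pCAF replicate 1 (0.0510 to 0.129). Schwann cell markers moved the same way, with a sum of 0 to 1.13 CPM in pCAF, where Sox10 was at 0, and 113 to 626 CPM in NMF, and their part in these falls was not tested.

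Among the ADAMTS proteoglycanases, which cut aggrecan and versican, Adamts4 and Adamts8 rose in pCAF, none fell and 4 did not pass. The share that passed was 33.3%, near the 28.4% of all tested genes. Adamts4 (chromosome 1, 171250421 to 171260637, plus strand), called aggrecanase 1, had the smallest adjusted p of the 28 tested members. It was at 156, 129.6 and 137 CPM in pCAF, against 5.02, 1.69, 8.80 and 3.55 CPM in NMF. The pCAF libraries lay close together, and the lowest of them was many times the highest NMF library. The rise was 29.4-fold (log2 fold change 4.88, SE 0.44, adjusted p = 6.09e-05), and the log2 fold change stayed between 4.61 and 5.34 in 17 alternative fits. Adamts8 (chromosome 9, 30942562 to 30963838, plus strand), known as an inhibitor of angiogenesis, was at 30.5, 6.76 and 4.99 CPM in pCAF, against 3.09, 1.27, 4.93 and 3.17 CPM in NMF. Its rise of 4.43-fold (log2 fold change 2.15, SE 0.72, adjusted p = 0.0472) rested on pCAF replicate 1, and without that library it was 1.85-fold (adjusted p = 0.296). The call was also lost without any 1 NMF library (adjusted p from 0.0657 to 0.121), and with library totals (0.0722), upper quartile factors (0.0519) or limma-voom (0.105).

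Adamts1, Adamts5, Adamts9 and Adamts15 did not pass. Adamts5, called aggrecanase 2 and the main aggrecanase of mouse cartilage, was at 7.21, 6.20 and 11.6 CPM in pCAF, against 6.18, 7.18, 4.93 and 9.34 CPM in NMF. pCAF replicate 3 was the highest of all libraries and the other values overlapped in part (log2 fold change 0.26, SE 0.48, adjusted p = 0.729). Adamts1, a protease of versican that is needed for ovulation, was at 733, 235 and 215 CPM in pCAF, against 501, 402, 435 and 194 CPM in NMF. pCAF replicate 1 was the highest of all libraries and NMF replicate 4 the lowest, which placed 1 library of each group on the far side of the other group. Adamts1 had a log2 fold change of 0.04 (SE 0.47, adjusted p = 0.959) that turned negative with library totals (-0.25) and with upper quartile factors (-0.04). Without pCAF replicate 1 and NMF replicate 4 it was 2.00-fold lower in pCAF (adjusted p = 1.69e-04). Adamts15, which also cuts versican, was at 349, 126 and 92.01 CPM in pCAF, against 56.01, 49.8, 94.3 and 123 CPM in NMF, and did not pass (2.33-fold, adjusted p = 0.0818). Without pCAF replicate 3 Adamts15 was 2.94-fold higher (adjusted p = 0.0416), and without pCAF replicate 1 it was at 1.34-fold (adjusted p = 0.382). Adamts9, a relative of the worm gene gon-1, was at 36.3 ± 21.1 CPM in pCAF and 18.9 ± 8.60 CPM in NMF (adjusted p = 0.176).

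The genes of procollagen N-proteinases and of proteases that cut cartilage oligomeric matrix protein (COMP) did not pass. Adamts2, which removes the N-propeptide of fibrillar procollagens, was at 137 ± 26.4 CPM in pCAF and 97.2 ± 19.8 CPM in NMF (log2 fold change 0.49, SE 0.26, adjusted p = 0.192). Adamts14, with the same activity, was at 153, 41.7 and 38.8 CPM in pCAF, against 26.3, 16.9, 46.8 and 40.7 CPM in NMF. Again pCAF replicate 1 was alone above the NMF range, and the adjusted p was 0.102. Adamts3, another such enzyme, had no count in any library. Among their substrates, Col1a1 was at 28180.3 ± 7516 CPM in pCAF and 7186 ± 1726 CPM in NMF (log2 fold change 1.97, SE 0.31, adjusted p = 0.00126). Adamts7 was at 4.44, 33.8 and 29.4 CPM in pCAF, against 10.04, 14.8, 17.6 and 7.28 CPM in NMF. In Adamts7 pCAF replicate 1 lay below each NMF library and the other pCAF libraries above each, so the adjusted p was 0.317 with all libraries and 0.0170 without pCAF replicate 1 (2.57-fold higher). The 3' end of Adamts7 overlaps Tbc1d2b on the other strand, which leaves its counts uncertain. Adamts12 held 0, 14 and 10 counts in pCAF, against 25, 2, 12 and 3 counts in NMF, and the groups overlapped over most of their range (adjusted p = 0.889).

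Of the 4 other tested ADAMTS genes, Adamts6 rose, Adamts10 and Adamts19 fell and Adamts16 did not pass. That is 75% of these 4, where 28.4% of all tested genes passed in either direction. The filter on low counts was passed by Adamts6 through pCAF libraries alone and by Adamts19 through NMF libraries alone. Adamts6 (chromosome 13, 104287835 to 104496695, plus strand), which acts on microfibril components, was at 14.97, 15.8 and 8.87 CPM in pCAF, against 0.773, 0.422, 1.06 and 0 CPM in NMF. This rested on 27, 28 and 16 counts in pCAF, against 2, 1, 3 and 0 counts in NMF. Adamts6 was 24.2-fold higher (log2 fold change 4.60, SE 0.80, adjusted p = 0.00227), and without NMF replicate 3, with 3 NMF counts left, the pCAF level was 45.3 times that of NMF (95% counting interval 14.9 to 225). Adamts10 (chromosome 17, 33524204 to 33553782, plus strand), the closest relative of Adamts6 and a binder of fibrillin-1, was lower. It was at 88.7, 40.6 and 45.5 CPM in pCAF, against 118, 106, 97.9 and 143 CPM in NMF. The fall of Adamts10 was 1.99-fold (log2 fold change -1.0, SE 0.32, adjusted p = 0.0436), and the call was lost without any 1 library except pCAF replicate 1 (adjusted p from 0.0789 to 0.150) and with DESeq2 size factors (0.0503). Adamts19 (chromosome 18, 58836667 to 59054060, plus strand), known from heart valves, held 1, 4 and 1 counts in pCAF, against 26, 11, 22 and 71 counts in NMF. It was 7.78-fold lower (log2 fold change -2.96, SE 0.74, adjusted p = 0.0135). Leaving out pCAF replicate 2 left 2 pCAF counts of Adamts19 and a ratio of NMF to pCAF of 17.8 (95% counting interval 4.84 to 149), and without pCAF replicate 3 the call was lost (adjusted p = 0.0582). Adamts16, known from kidney and gonad, was at 17.7, 16.9 and 24.4 CPM in pCAF, against 1.93, 5.49, 2.11 and 14.8 CPM in NMF. Its groups did not overlap, but NMF replicate 4 came near the pCAF range, and the adjusted p was 0.0910 with all libraries and 0.00749 without NMF replicate 4 (6.25-fold higher).

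Genes of the ADAMTS-like proteins, which have no protease domain, were lower in pCAF in 3 of 4 tested cases. Among all tested genes 14.2% were lower. Adamtsl4 (chromosome 3, 95676201 to 95687917, minus strand), a fibrillin-1 binder of the lens suspensory fibers, was at 29.4, 8.45 and 10.5 CPM in pCAF, against 166, 126, 195 and 112 CPM in NMF. The highest pCAF library was far below the lowest NMF library. Adamtsl4 fell by 3.21 on the log2 scale (SE 0.46), 9.25-fold, with an adjusted p of 7.70e-04, and was 15.7-fold lower without pCAF replicate 1. Adamtsl3 (chromosome 7, 82335694 to 82614450, plus strand) was at 2.22, 11.3 and 8.87 CPM in pCAF, against 20.1, 32.1, 19.7 and 17.6 CPM in NMF, 2.98-fold lower (adjusted p = 0.0474). Adamtsl5 (chromosome 10, 80339110 to 80348412, minus strand) was at 16.1, 12.96 and 8.31 CPM in pCAF, against 26.3, 19.8, 30.6 and 31.6 CPM in NMF, 2.18-fold lower (adjusted p = 0.0441). For both genes the groups were apart but near each other. The Adamtsl3 call was lost without pCAF replicate 3 or any 1 NMF library (adjusted p from 0.0552 to 0.135), and that of Adamtsl5 without any 1 library except pCAF replicate 1 (0.0571 to 0.156). Adamtsl1 was at 21.1, 62.5 and 62.6 CPM in pCAF, against 75.7, 78.5, 78.9 and 82.2 CPM in NMF. Its NMF libraries lay close to each other and above each pCAF library, but the log2 fold change of -0.69 (SE 0.36) did not pass (adjusted p = 0.182). The blood endothelial sum of 35.5 to 42.7 CPM in pCAF and 1036 to 1553 CPM in NMF moved the same way as these genes. So did the sums of adipocyte, Schwann cell and pericyte markers, the last at 152 to 253 CPM in pCAF and 292 to 474 CPM in NMF. Of the pericyte markers, Rgs5 and Notch3 were lower, and Cspg4, Kcnj8 and Abcc9 did not pass. Cspg4 held 158, 76 and 71 counts in pCAF, against 50, 20, 44 and 227 counts in NMF. The part of any of these cells in the falls was not tested.

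pCAF replicate 1 differed by more than 2-fold from the mean of pCAF replicates 2 and 3 in 16 of 28 members, 10 above and 6 below, which is 57.1%, against 43.5% of all tested genes. These ratios were taken after adding 1 CPM. Adamts8 (4.58-fold), Adamts14 (3.74-fold), Adamts1 (3.25-fold) and Adamts15 (3.18-fold) were the highest there, and Adamts12, Adamts7 and Adam19 were at 0.130, 0.167 and 0.236 of that mean. NMF replicate 4 differed by more than 2-fold from the mean of the other NMF libraries in 21.4% of members and 18.3% of all genes. Without both libraries 18 of 28 tested members passed, 9 higher and 9 lower, against 52.7% of all tested genes. These 18 included 12 of the 13 above, with Adamts8 lost. Adam10, Adamts7, Adamts15 and Adamts16 were then higher, and Adam15 and Adamts1 lower. The plot of fold changes without each of these libraries shows where the members moved.

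**Figure D3:**
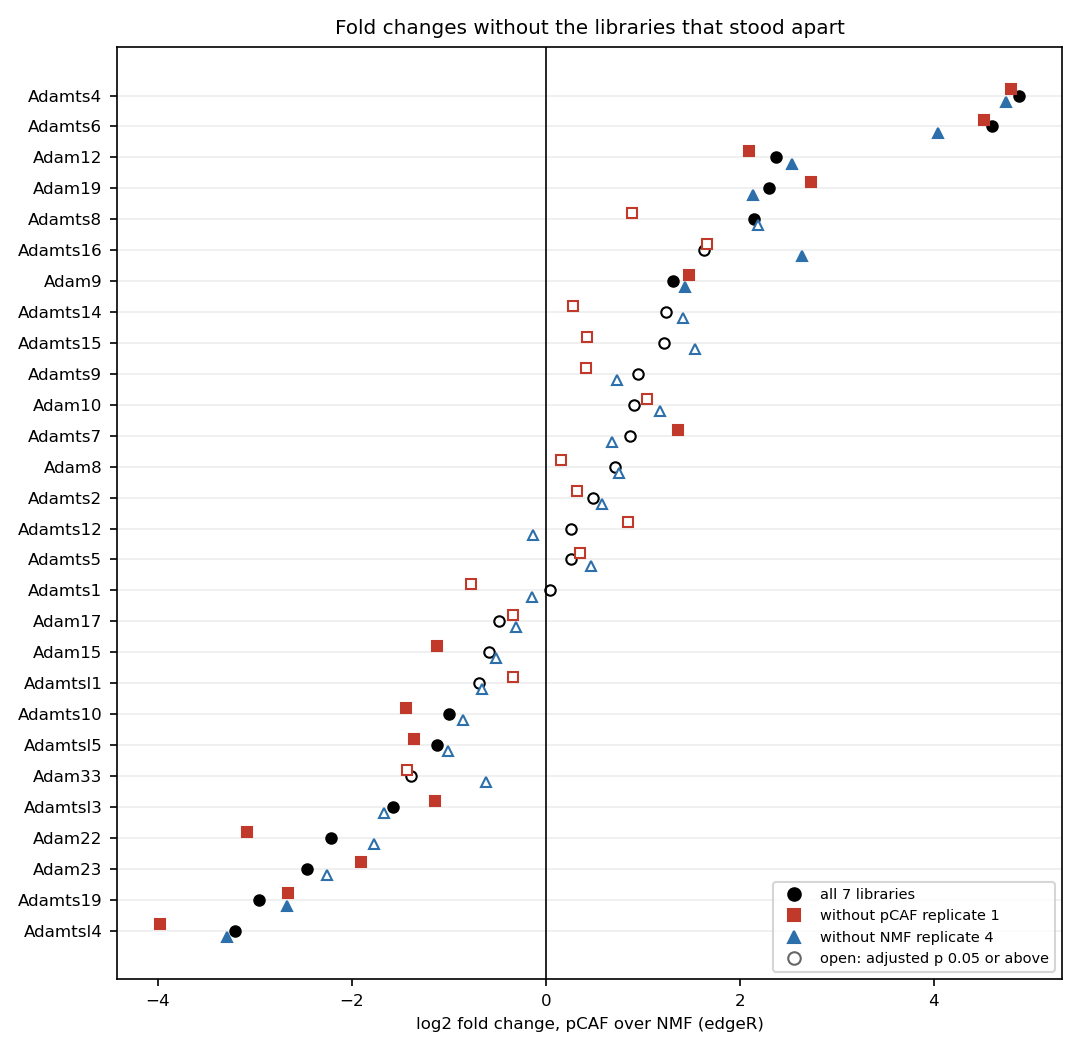
Log2 fold change, pCAF over NMF, of the 28 tested members with all 7 libraries (black circles), without pCAF replicate 1 (red squares) and without NMF replicate 4 (blue triangles); filled symbols have an adjusted p under 0.05 in edgeR. Adamts8 drops to 0.89 and Adamts1 to -0.77 without pCAF replicate 1, and Adamts16 stands at 2.64 without NMF replicate 4.

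Of the 29 members not tested, the 19 at 0 in every library were mostly genes of the male germ line, such as Adam2, Adam3, Adam18 and Adam24. Others were Adam28, Adamts3 and Adamts13, the protease of von Willebrand factor. The 3' ends of Adam28, Adamts13, Adam26b and Adam34 hold a stretch nearly identical to the 3' end of at least 1 other gene. Their counts of 0 are therefore uncertain. Adamts20, known from melanoblast survival, held 15, 4 and 8 counts in pCAF, against 0, 0, 1 and 0 counts in NMF. The pCAF level of Adamts20 was 65.98 times that of NMF (95% counting interval 10.9 to 2701), and it passed in a fit with no filter (adjusted p = 0.00634), where 18.6% of all genes passed. The single NMF count lay in replicate 3, and leaving that library out gave a bound of at least 17.2-fold for Adamts20. The ratio of Adamts20 was 39.1 without NMF replicate 4 (6.45 to 1602) and 44.1 without pCAF replicate 1 (6.52 to 1885). Adam1a held 0, 1 and 1 counts in pCAF, against 11, 9, 3 and 25 counts in NMF, and did not pass in that fit (adjusted p = 0.0782). Its 3' end lies in overlap with Gm42878 on the same strand, so its reads are uncertain. Adamts18 held no count in pCAF and 8, 3, 5 and 5 counts in NMF, at least 2.86-fold lower if 3 counts are taken as the limit for all pCAF libraries (adjusted p = 0.0669), and at least 1.9-fold with any 1 pCAF library left out. Adamtsl2, a fibrillin binder that limits TGF-beta signaling, had 11 counts in NMF replicate 4 and none elsewhere. Adam5 held 3 to 10 counts per library in pCAF and 0 to 8 in NMF, while Adam1b, Adam4, Adam11, Adam32 and Adamts17 held 0 to 9 counts in any library.

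Because the title of the series names DNA methylation and RUNX1, promoters of called members are shown as the CpG sites they hold. RefSeq windows of 250 bases before a start (GRCm38.p6, the assembly of mm10) were matched for 15 of the 28 tested members, with 17 windows in all. They held a median of 18 CpG sites, where all 32851 windows held a median of 6. All windows were not limited to genes with enough counts to test, so unlike sets are compared here and below. Adam19, which rose, had 5, 7 and 4 CpG sites in its 3 windows. No window was matched for Adam12, Adam9, Adamts4, Adamts6 or Adamts8, which also rose, nor for Adamts10 or Adamts19, which fell. Windows of genes that rose and fell can thus not be compared. Of the genes that fell, Adam22 had 17, Adam23 had 27, Adamtsl3 had 39, Adamtsl4 had 17 and Adamtsl5 had 22, and windows of members that did not pass held 6 to 35. Methylation was not measured in these files. For Adam19 the start nearest to its annotated gene start was taken, and Adamtsl4 was the called ADAMTSL gene with the smallest adjusted p. The 4 windows shown are those of Adam19, Adam22, Adam23 and Adamtsl4. They are given 5' to 3' on the strand of the gene, with each CpG in capitals.
Adam19, chr11:46055734-46055983, plus strand: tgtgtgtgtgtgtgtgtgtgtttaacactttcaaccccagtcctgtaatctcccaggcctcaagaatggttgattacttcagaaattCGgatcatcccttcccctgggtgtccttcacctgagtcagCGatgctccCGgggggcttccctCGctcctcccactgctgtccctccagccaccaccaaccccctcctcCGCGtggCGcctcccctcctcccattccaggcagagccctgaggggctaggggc
Adam22, chr5:8368161-8368410, minus strand: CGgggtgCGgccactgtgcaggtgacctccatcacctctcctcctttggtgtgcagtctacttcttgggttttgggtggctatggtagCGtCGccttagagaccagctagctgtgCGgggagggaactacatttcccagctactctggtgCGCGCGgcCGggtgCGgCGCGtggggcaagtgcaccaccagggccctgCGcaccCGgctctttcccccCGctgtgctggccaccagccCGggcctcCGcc
Adam23, chr1:63445641-63445890, plus strand: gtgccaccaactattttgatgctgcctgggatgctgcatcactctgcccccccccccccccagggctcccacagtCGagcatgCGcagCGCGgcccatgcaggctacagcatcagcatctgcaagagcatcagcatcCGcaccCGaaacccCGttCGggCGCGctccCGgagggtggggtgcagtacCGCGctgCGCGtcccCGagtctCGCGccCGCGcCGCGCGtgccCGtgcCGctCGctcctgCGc
Adamtsl4, chr3:95687918-95688167, minus strand: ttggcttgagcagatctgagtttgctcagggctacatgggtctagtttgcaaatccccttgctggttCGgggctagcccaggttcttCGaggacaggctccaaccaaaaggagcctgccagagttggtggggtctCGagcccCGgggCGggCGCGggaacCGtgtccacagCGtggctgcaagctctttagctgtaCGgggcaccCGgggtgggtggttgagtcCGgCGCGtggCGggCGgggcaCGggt
The motif TGTGGT, the core bound by RUNX factors, was searched on both strands. It was found in 2 of the 17 windows, those of Adam15 and of a downstream Adam19 start, which is 11.8%, against 14.05% of all windows. The AP-1 motif TGANTCA, which reads the same on both strands, was found in 1 window (5.88%), that of Adam19 shown above, against 6.75% of all windows. A match is a description of letters and not of a bound site.

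The partners of these proteases changed as well. For the lists below, 14.3% of all tested genes were higher and 14.2% lower, 28.4% in all. All 5 inhibitors tested passed, 2 higher and 3 lower. Timp3, the TIMP that inhibits ADAMTS4, ADAMTS5 and ADAM17 best, was named after its values were seen. It was at 1126, 2047 and 2618 CPM in pCAF, against 752, 919, 707 and 671 CPM in NMF, 2.53-fold higher (adjusted p = 0.0102). Timp1, an inhibitor of ADAM10, was at 4108 ± 1804 CPM in pCAF and 74.7 ± 54.8 CPM in NMF, 54.99-fold higher (adjusted p = 1.26e-04), and leaving out NMF replicate 3 made this 85.8-fold. Reck, a membrane-bound inhibitor of metalloproteinases including ADAM10, was at 27.7 ± 4.71 CPM in pCAF and 133 ± 31.3 CPM in NMF, 4.79-fold lower (adjusted p = 4.22e-04). Timp2 was 4.45-fold lower (906 ± 238 CPM in pCAF, 4035 ± 238 CPM in NMF, adjusted p = 5.00e-04). Timp4 had no pCAF count, at least 386 times lower with the same limit of 3 counts (257 without pCAF replicate 1 or 3, 259 without pCAF replicate 2).

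Genes for the maturation and transport of ADAM and ADAMTS proteins were tested in 15 cases, of which 2 rose and 6 fell, against 14.3% and 14.2% of all tested genes. Pcsk5, a proprotein convertase, was 5.25-fold higher (66.03 ± 12.8 CPM in pCAF, 12.4 ± 3.79 CPM in NMF, adjusted p = 5.84e-04). Its relative Pcsk6 was 7.44-fold lower (41.6 ± 28.9 CPM in pCAF, 309 ± 203 CPM in NMF, adjusted p = 0.00504), or 12.3-fold without pCAF replicate 1 and 4.90-fold without NMF replicate 4. Tspan5 and Tspan15 encode tetraspanins that carry ADAM10 to the cell surface and steer its choice of substrate. Tspan5 was at 43.3, 21.4 and 29.4 CPM in pCAF, against 123, 129, 124 and 103 CPM in NMF, 3.81-fold lower (adjusted p = 0.00114). Tspan15 held 1 count over the pCAF libraries and 254 over NMF, a ratio of NMF to pCAF of 104 (95% counting interval 18.5 to 4122). Leaving out pCAF replicate 3 left none, a bound of at least 23.04 times lower, and without pCAF replicate 1 or 2 that ratio was 69.1 and 69.7 (12.3 to 2741 and 12.4 to 2762). Rhbdf1, an iRhom that brings ADAM17 to the surface, was at 195 ± 120.2 CPM in pCAF and 192 ± 77.3 CPM in NMF (adjusted p = 0.974). Lrp1, the receptor that clears ADAMTS4 and ADAMTS5, was at 1436 ± 277 CPM in pCAF and 931 ± 253 CPM in NMF (adjusted p = 0.129; 0.0336 without NMF replicate 4).

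Of 10 tested matrix substrates 4 rose and 2 fell, beside 14.3% and 14.2% of all tested genes. Vcan (versican) was at 142, 90.1 and 168 CPM in pCAF, against 8.88, 16.5, 20.8 and 5.79 CPM in NMF, 10.4-fold higher (adjusted p = 4.79e-04). Aggrecan, the name-giving substrate of Adamts4, had no Acan count in any library. Fbn2 (fibrillin-2) was 42.1-fold higher (62.7 ± 35.2 CPM in pCAF, 1.59 ± 1.65 CPM in NMF, adjusted p = 0.00134), and 70.5-fold without NMF replicate 1. Bgn (biglycan) was at 12960.2 ± 788 CPM in pCAF and 1224 ± 519 CPM in NMF (adjusted p = 1.11e-04). Fbln1 (fibulin-1), a cofactor of ADAMTS1, was 2.59-fold lower (16.9 ± 6.56 CPM in pCAF, 43.8 ± 8.12 CPM in NMF, adjusted p = 0.0169). Dcn and Fn1 did not pass with all libraries (adjusted p = 0.0736 and 0.339), and Dcn was lower without pCAF replicate 1 (0.0184).

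Of 6 procollagen and VEGF-C genes 5 rose and none fell, where 14.3% of all tested genes rose and 14.2% fell. Col1a2 was 3.30-fold higher (adjusted p = 0.00379) and Col3a1 2.37-fold higher (adjusted p = 0.0141), a call lost without pCAF replicate 2 (0.0611) or NMF replicate 1 (0.0551). Ccbe1, the cofactor that brings ADAMTS3 to VEGF-C, was 5.29-fold higher (21.6 ± 7.02 CPM in pCAF, 3.95 ± 2.39 CPM in NMF, adjusted p = 0.00995), while Adamts3 itself was at 0. Vegfc did not pass (adjusted p = 0.0545) but did without pCAF replicate 1 (0.0137) or NMF replicate 4 (0.0302).

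Of 17 surface or secreted proteins that ADAMs cut 7 rose and 4 fell, with 14.3% and 14.2% over all tested genes. Ereg, an EGF receptor ligand, held 245 counts over pCAF and 1 over NMF, a ratio of 599 (95% counting interval 106 to 23742). The NMF count lay in replicate 3, and leaving that library out gave a bound of at least 156-fold. The ratio of Ereg was 355 without NMF replicate 4 (63.1 to 14076). Other tested EGF receptor ligands, named after their values were seen, went both ways. Areg was 14.2-fold lower, with 17 counts over pCAF and 503 over NMF (adjusted p = 0.00945), and Hbegf was 3.25-fold higher (adjusted p = 0.0238). Nrg1 (neuregulin-1), a substrate of ADAM19, held 146 counts over pCAF and 1 over NMF, a ratio of 357 (63.04 to 14187). Leaving out NMF replicate 1, which held it, gave a bound of at least 95.5-fold. The ratio of Nrg1 was 212 without NMF replicate 4 (37.4 to 8411). Cd44, a hyaluronan receptor, was 19.8-fold higher (134 ± 43.2 CPM in pCAF, 6.44 ± 5.01 CPM in NMF, adjusted p = 4.67e-04). Igfbp5, an IGF binding protein that ADAM12 can cut, was 11.3-fold lower (176 ± 72.7 CPM in pCAF, 1984 ± 616 CPM in NMF, adjusted p = 2.65e-04). Its relative Igfbp3 did not pass (734 ± 471 CPM in pCAF, 271 ± 93.997 CPM in NMF, adjusted p = 0.0583) but was higher without pCAF replicate 1 (0.00114). Tnfrsf1a, which ADAM17 sheds, did not pass (adjusted p = 0.541; 0.0300 without NMF replicate 4). The plot of partner genes gives each tested gene of the 5 lists with more than 3 counts in both groups.

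**Figure D4:**
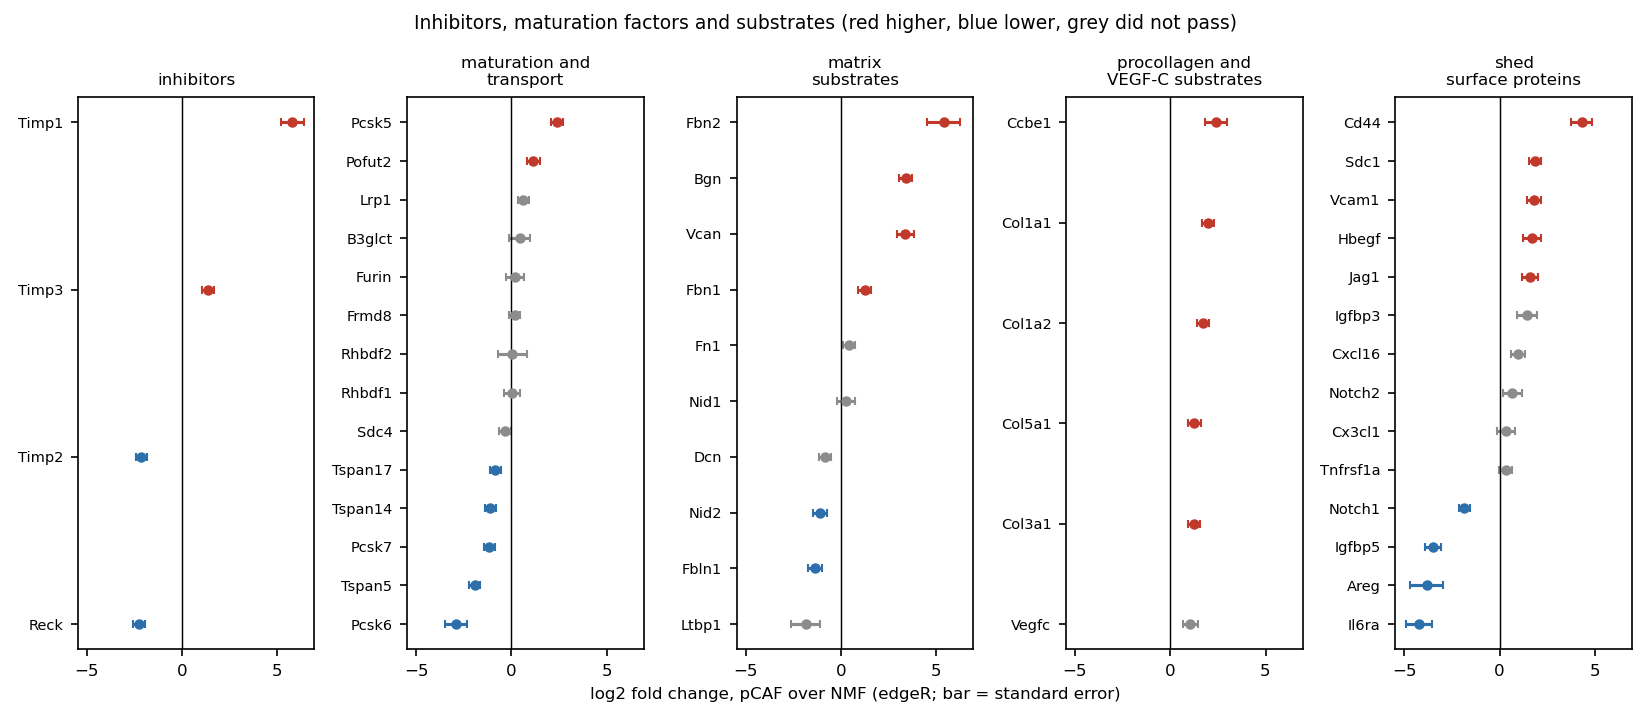
Log2 fold change, pCAF over NMF, with the standard error from edgeR, for genes of 5 lists of inhibitors, maturation and transport factors and substrates that held more than 3 counts in both groups; red passed as higher, blue as lower and grey did not pass. Timp1 stands at 5.78 and Reck at -2.26 among the inhibitors, and Vcan at 3.38 among the matrix substrates.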

How the data were processed

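The deposited table held raw counts of reads per gene, which the authors had made from 3' mRNA libraries. The submitters' processing notes name bcl2fastq, STAR 2.4.2a, HTSeq and the build mm10. The annotation, strand setting, use of molecular identifiers and filters are not given in the sources used here. Columns were matched to samples by title. The members and lists were chosen with earlier results of these data known. Each tested member and the untested members with 10 or more counts in a library were named. So were up to 4 genes by adjusted p and 2 that did not pass per partner list, plus Timp3, Areg and Hbegf.

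Counts of 3 pCAF and 4 NMF libraries (1885039 to 4990070 per library) were fitted over all genes with edgeR 4.0.16 in R 4.3.3, using TMM factors, filterByExpr by group, the robust quasi-likelihood F test and Benjamini-Hochberg adjustment. The filter asked for 4.50 CPM, 10 counts at the median total, in at least 3 libraries. CPM used TMM-scaled totals, and SDs are over libraries. Alternatives were other scalings, DESeq2 1.42.0, limma 3.58.1 (voom), other filters, thinning, a replicate block and leaving out libraries. Counting intervals (95%, exact) and floors (3 counts) cover counting error only. Positions came from GENCODE M21, overlaps were sought at 3' ends, and near-identical 3' ends with blastn 2.17.0.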

Additional observations from a re-analysis of the deposited data

Results flagged for a closer look

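In 7 of 56 genes screened, 28 members and 28 partners, 1 NMF library lay far from the other NMF libraries by Dixon's criterion at the 95% level, which chance meets in about 1 of 20 groups. Groups of 3 were not screened. Adam33 was at 92.8 CPM in NMF replicate 4, against 21.2 to 28.5 CPM in the other NMF libraries. NMF replicate 4 was also the high library for Pcsk6 (610.1 CPM, others 179.5 to 249.9), Bgn (2000.5 CPM, others 913 to 995) and Tnfrsf1a (721 CPM, others 302 to 321). Timp2 was at 4389 CPM in NMF replicate 1, against 3879.6 to 3947 CPM in the others. The flags of Ereg (0.352 CPM, NMF replicate 3) and Nrg1 (0.386 CPM, NMF replicate 1) each stand for 1 count, with 0 in the other NMF libraries.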

How the results depend on the processing

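Adam9, Adam12, Adam19, Adamts4, Adamts6 and Adamtsl4 kept their calls in every alternative that gave them a value, with a highest adjusted p of 0.0411. Calls were also lost for Adamts10 with DESeq2 size factors (adjusted p = 0.0503), for Adamts8, Adamtsl3 and Adamtsl5 with limma-voom (0.105, 0.0527 and 0.0544), and for Adam23 and Adamtsl5 with no filter (0.0630 and 0.0601). Adamts8 lost its call with library totals (0.0722) and upper quartile factors (0.0519) too, and Adam33 gained one in the DESeq2 test (0.0489). Among members, 12 values changed sign. The Adamts1 log2 fold change was -0.25 with library totals, -0.04 with upper quartile factors, -0.12 with limma-voom, -0.42 with the replicate block, -0.77 when pCAF replicate 1 was left out, -0.14 for NMF replicate 4 and -1.0 for both, with 0.34 as the highest value, without pCAF replicate 3. That of Adamts12 was -0.05 with the block, -0.42 when pCAF replicate 2 was left out, -0.07 for NMF replicate 2 and -0.13 for NMF replicate 4, and 0.85 for pCAF replicate 1. That of Adamts5 was -0.05 without pCAF replicate 3 and 0.55 without both libraries that stood apart. Rhbdf1 was at -0.26 with library totals, -0.04 with upper quartile factors, -0.07 with limma-voom, -0.01 with no filter, -0.60 without pCAF replicate 1, -0.09 and -0.11 without NMF replicate 1 or 2, -0.29 without both libraries that stood apart and 0.37 without NMF replicate 4. Leaving out 1 library at a time gave 1 to 8 lower and 5 to 7 higher members, and 1016 to 2021 higher and 979 to 2187 lower genes in all. Without pCAF replicate 1 and NMF replicate 4 these were 2802 and 2913 genes, with 9 members higher and 9 lower. Replicate numbers were shared by the groups' labels. Deviations of same-numbered libraries correlated at -0.0932, 0.0794 and -0.0132. With 3 such pairs, this cannot settle whether same-numbered samples shared more than a number. With the replicate block 6 members were higher and 1 lower, and 978 genes were higher and 1023 lower in all. Adamts8 lost its call there and Adamts16 gained one as higher. Adam22, Adam23, Adamts10, Adamts19, Adamtsl3 and Adamtsl5 lost theirs too, so Adamtsl4 was the only lower member. The causes were not tested. The limits are 3 and 4 libraries, groups that differ in the PDPN sort and in digestion, which cannot be told apart from tumor growth, an age at collection not stated for pCAF, and few counts for Adam23, Adamts19 and Adamts6.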

Other observations

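Some family genes lie side by side in the genome. Adamts8 and Adamts15, on opposite strands of chromosome 9 with 20.1 kb between them, were both highest in pCAF replicate 1 (30.5 and 349 CPM). This was not particular to neighbours. In 10 of 28 members that library was more than 2-fold above the mean of pCAF replicates 2 and 3, Adamts14 on chromosome 10 among them. Adamts1 and Adamts5, 53.1 kb apart on chromosome 16, were not alike across libraries, as pCAF replicate 1 was the highest of 7 for Adamts1 at 733 CPM and the third highest for Adamts5 at 7.21 CPM. Adam32, 0.8 kb from Adam9 on chromosome 8, held 7 counts over pCAF and 2 over NMF and was not tested.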
